A study of Homo sapiens with 4 samples.

Results

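The genes described here encode the subunits of ribonucleotide reductase: RRM2, RRM1 and RRM2B. RRM2 was selected on the authors' reproducible ADAR peaks in these same data, of which it held 12, and RRM1 and RRM2B were added as its family. Members were the ADAR clusters whose midpoint lay in a RefSeq GRCh38 gene span, on the gene's strand. They came to 175 of 534161 clusters in replicate 1, 77 of 155848 in replicate 2 and 12 of 1717 peaks in the reproducible list. RRM2 held 107, 55 and 12 of these, RRM1 held 50, 17 and 0, and RRM2B held 18, 5 and 0.

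Ribonucleotide reductase turns ribonucleoside diphosphates into deoxyribonucleoside diphosphates and so sets the supply of DNA building blocks. RRM1 is the large, catalytic subunit with the allosteric sites. RRM2 is the small subunit that carries the tyrosyl radical, and dividing cells make it in S phase. RRM2B, also called p53R2, is the small subunit that p53 induces, and it serves DNA repair and mitochondrial DNA upkeep in resting cells. ADAR converts adenosines of double-stranded RNA to inosine, and in nuclear transcripts most such duplexes are pairs of inverted repeats.

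The assay was eCLIP (enhanced crosslinking and immunoprecipitation) of K562, an established leukaemia line with erythroid traits. An antibody to ADAR1 gave 2 immunoprecipitated (IP) libraries, and 2 input libraries were made without it, all numbered 1 and 2. All 4 came from untreated cells crosslinked with 254 nm light at 400 mJ/cm2. The labels do not say that the numbers stand for separate cultures. The protocols also name HepG2, so hepatocyte markers were counted beside erythroid ones. Of 11 erythroid marker genes, 11 held clusters in replicate 1 and 10 in replicate 2 (KLF1 did not), while 0 of 7 hepatocyte markers held any in either. All folds and −log10 p-values below are those of the authors' deposited lists, as IP over input, and a cluster is called enriched where both the log2 fold and the −log10 p are at least 3. IP and input reads per cluster were worked back from these values. The ratio of IP depth to input depth that this gave was 3.33 for replicate 1 and 0.553 for replicate 2. Intervals are exact (Clopper-Pearson) 95% intervals of the ratio of these reads, and they cover counting error only. Each replicate's list gives 1 value per cluster from 1 IP library, and the reproducible list gives 1 value from both combined, so no test across samples was made for any gene.

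RRM2 spans positions 10122568 to 10211010 of chromosome 2, plus strand, a length of 88443 bases. RefSeq lists 2 coding transcripts and 1 noncoding transcript for it and gives C2orf48, once a separate gene name, as a synonym. The reductase messenger is known to come from the start of this span. Exons were not part of the annotation used here, so clusters are placed by their distance from the span's start. Enriched RRM2 clusters numbered 17 of 107 in replicate 1 (15.9%) and 13 of 55 in replicate 2 (23.6%). Across all clusters of the lists the enriched share was 1.39% in replicate 1 and 12.8% in replicate 2. Because RRM2 was selected on this contrast, nothing is read from that difference. No cluster of either replicate lay on the opposite strand within any of the 3 spans.

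The enriched clusters of RRM2 were gathered in a stretch of 3476 bases (3.93% of the span), from 38.2 to 41.7 kb past its start, between positions 10160795 and 10164270. This stretch, called here the distal site group, is bounded by the reproducible peaks and so is also defined by the readout. It held 13 of the 17 enriched clusters in replicate 1 and 10 of the 13 in replicate 2. Its median log2 fold was 4.03 over 16 clusters in replicate 1 and 4.0 over 11 clusters in replicate 2. Clusters in the rest of the span had medians of 1.40 (91 clusters) and 1.47 (44 clusters). The medians over all clusters of the lists were 0.07 and 1.85. The rest of the span thus lay above its list in replicate 1 and below it in replicate 2. In the rest, 4 clusters were enriched in replicate 1 (4.40%) and 3 in replicate 2 (6.82%). The ranges overlapped: the highest log2 fold outside the group was 4.12 in replicate 1 and 4.55 in replicate 2. By −log10 p the groups overlapped in replicate 1, where the highest value outside was 10.4, and not in replicate 2, where it was 4.86 and all 11 distal clusters lay above it.

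**Figure D1:**
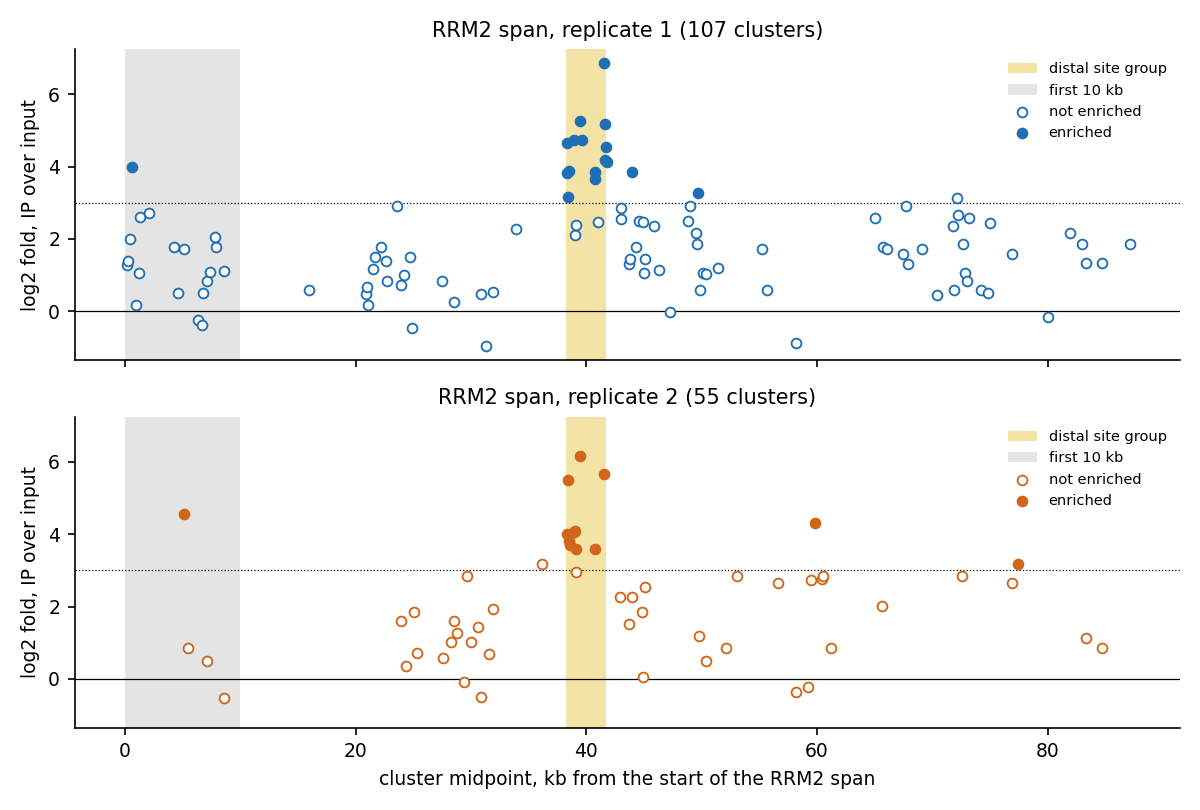
Log2 fold of IP over input (y axis) of each RRM2 cluster against the distance of its midpoint from the start of the RRM2 span in kb (x axis), for replicate 1 (107 clusters) and replicate 2 (55 clusters). Filled points are enriched, the dotted line marks log2 fold 3, and shading marks the first 10 kb and the distal site group, which holds 13 of 17 and 10 of 13 filled points.

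IP and input reads were set per kb of cluster and compared over the parts of the span. In replicate 1, distal clusters held 4140 IP reads per kb, against 575 in the first 10 kb, 408 between the first 10 kb and the distal group, and 481 after it. Their input reads per kb were 73.0, against 62.1, 58.7 and 41.5. In replicate 2, distal clusters held 1720 IP reads per kb and 189 input reads per kb, leaving out the cluster of log2 fold 5.65 whose −log10 p stands at its limit and whose reads could not be fixed. IP reads per kb were 171 in the first 10 kb (3 clusters), 175 between and 164 after, and input reads per kb were 100, 133 and 72.0. Among clusters with recovered reads, both IP and input reads were densest in the distal group in both replicates. Apart from the cluster at the limit, every RRM2 cluster without recovered reads lay outside the distal group and was left out. In replicate 2 the first 10 kb so lacks a cluster of 8 bases with reads in the ratio 5 to 13. The order by input can therefore depend on leaving such clusters out. The distal group took 61.3% of the IP reads recovered in RRM2 clusters in replicate 1 (3687 of 6013, 95% interval 60.1 to 62.6) and 21.5% of the input reads (65 of 302, 17.0 to 26.6). In replicate 2 it took 73.9% of the IP reads (919 of 1244, 71.3 to 76.3) and 35.4% of the input reads (101 of 285, 29.9 to 41.3). Clusters touch, and a read across a border may be counted in both, so these sums can hold a read more than once and their intervals are too narrow. They also cover only the bases called as clusters, and only clusters with recovered reads. The group is bounded by peaks of IP over input, so an IP share above its input share follows from that choice. Nothing is read from the difference between these shares.

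The 12 reproducible peaks formed 7 sites once touching peaks were joined, covering 748 bases. Their log2 folds ran from 3.14 to 6.46 with a median of 4.01, below the median of 4.62 over the whole reproducible list. Single peaks were 12 to 127 bases wide. Of the 12, 10 had the same borders as a replicate 1 cluster and 2 as a replicate 2 cluster.

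The strongest site by reproducible fold lay last, at positions 10164024 to 10164270, 41.6 kb past the start, and held 4 touching peaks. Its top peak, at 10164024 to 10164150, had a reproducible log2 fold of 6.46 and a −log10 p of 83.4. By fold it ranked 43 of the 1717 reproducible peaks. In replicate 1 the same interval had log2 fold 6.85 (interval 4.99 to 9.90), from 769 IP reads over 2 input reads. It ranked 32 among all clusters of that list by fold. In replicate 2 a cluster from 10164009 to 10164202 had log2 fold 5.65, and its −log10 p stood at the lists' limit of 400. Its reads were in the ratio 529 to 19. That pair itself would give a −log10 p of 194, and values up to 283 were listed below the limit, so the reads were at least 1058 over 38 (interval 5.19 to 6.16 at those reads). Both intervals lay above 3, and the input of replicate 1 rested on 2 reads.

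Behind this peak replicate 1 had 3 further touching clusters of lower fold, with values of 5.18 (362 IP over 3 input reads), 4.18 (242 over 4) and 4.54 (310 over 4). The middle cluster is 12 bases wide, so neighbouring values cannot be independent. Just past the last reproducible peak, at 10164313 to 10164362, replicate 1 had a further enriched cluster at log2 fold 4.12 (116 over 2). Replicate 2 had no cluster there.

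The next strongest site was a single peak at 10162063 to 10162134, 39.5 kb past the start, with a reproducible log2 fold of 5.72 and a −log10 p of 51.9. Replicate 1 gave log2 fold 5.27 (515 IP over 4 input reads, interval 3.91 to 7.16). Replicate 2 gave 6.16 (198 over 5, interval 4.91 to 7.80), the highest fold of any RRM2 cluster in that replicate. The intervals overlapped, and both lay above 3. A cluster a little further on, at 10162183 to 10162228, reached log2 fold 4.73 in replicate 1 on 88 IP reads and 1 input read and had no counterpart in replicate 2.

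The group opened with a pair of touching peaks at 10160795 to 10160910, 38.3 kb past the start, with reproducible log2 folds of 3.92 and 4.18. In replicate 1 these were clusters of 3.82 (94 IP over 2 input reads) and 4.66 (84 over 1), and in replicate 2 a single cluster of 4.0 (53 over 6). The second site, at 10161080 to 10161147, had a reproducible log2 fold of 3.83. It stood at 3.88 in replicate 1 (196 over 4) and at 3.81 and 3.71 in 2 touching clusters of replicate 2 (62 over 8 and 58 over 8). The third, at 10161392 to 10161474, had 4.46, from 4.74 in replicate 1 (178 over 2) and 4.06 in replicate 2 (37 over 4). At these sites the counting intervals of the replicates overlapped.

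The site at 10161524 to 10161623, 39.0 kb past the start, was the weakest by reproducible log2 fold, at 3.14, and the replicates parted there. Replicate 2 gave log2 fold 4.08 (234 IP over 25 input reads, interval 3.48 to 4.74). Replicate 1 gave 2.12 (203 over 14, interval 1.34 to 3.02) and 2.38 (208 over 12, interval 1.55 to 3.36) in 2 touching clusters, neither enriched. The intervals of replicate 1 lay below that of replicate 2. Among distal clusters with recovered reads, these also had the most input reads in both replicates. It is the only 1 of the 12 peaks without an enriched cluster of replicate 1, so 11 of 12 were overlapped by enriched clusters of both replicates and 12 of 12 by those of replicate 2. Any shared base counts as overlap here. Where at least 50% of the peak had to be shared, 8 were overlapped in both replicates.

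The remaining site, at 10163340 to 10163401, 40.8 kb past the start, held 2 touching peaks with reproducible log2 folds of 3.61 and 3.74. Replicate 1 gave 3.66 (168 IP over 4 input reads) and 3.84 (143 over 3), and replicate 2 gave 3.60 (47 over 7, interval 2.45 to 4.99). The lower interval bound lay under 3 in each. Over the whole distal group the lower bound was above 0 for 16 of 16 clusters in replicate 1 and 10 of the 10 with recovered reads in replicate 2. It was at least 3 for 4 and 2 of them.

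**Figure D2:**
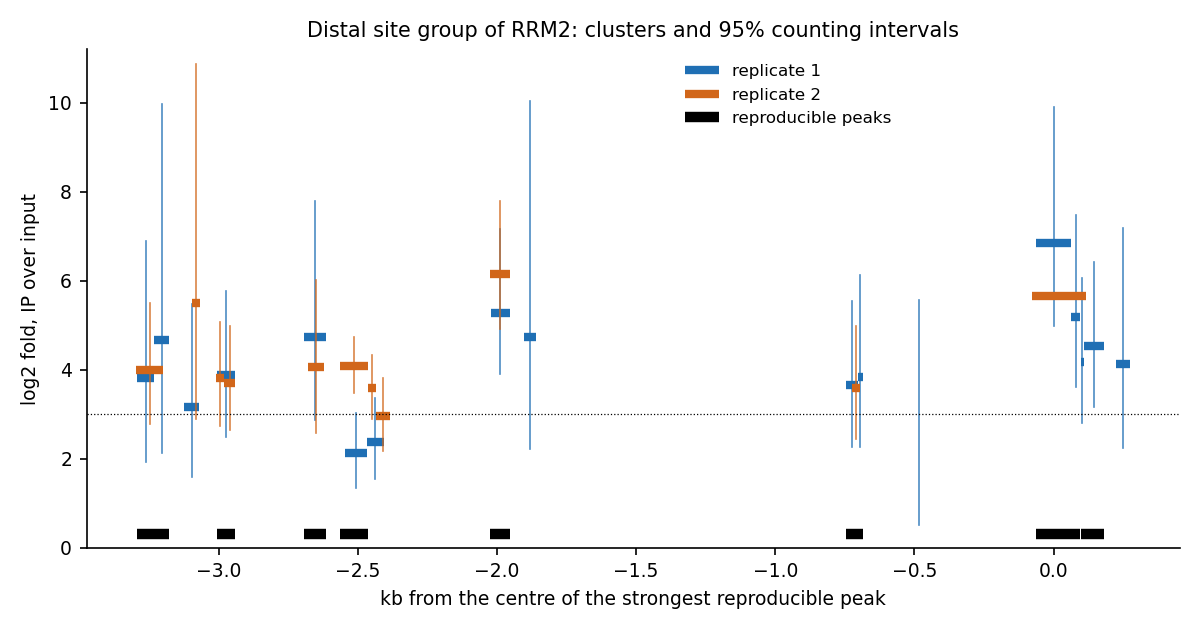
Clusters of the RRM2 distal site group and the one just past it: thick bars span each cluster in kb from the centre of the strongest reproducible peak (x axis) at its log2 fold of IP over input (y axis), and thin lines are 95% counting intervals. Black bars at the bottom mark the 12 reproducible peaks, the dotted line is log2 fold 3, and the replicate 2 cluster at log2 fold 5.65 has no line because its −log10 p is at the limit of 400.

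Some clusters lay just inside or outside the thresholds. In replicate 2 the cluster at 10161652 to 10161701 had log2 fold 2.96 with a −log10 p of 18.3 (73 IP over 17 input reads) and was not called. Its neighbour at 10161624 to 10161651 was called at 3.58 (132 over 20) and overlaps no reproducible peak. In replicate 1 the cluster at 10160964 to 10161017 was called at 3.17 (90 over 3), and replicate 2 had a called cluster of 5.50 at 10160992 to 10161020 (25 over 1). Those 2 clusters overlap, but the reproducible list holds no peak there.

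The first 10 kb of the span held clusters over 1445 bases in replicate 1 and 148 bases in replicate 2, few of them enriched. Replicate 1 had 19 clusters there with log2 folds from −0.37 to 3.99 and a median of 1.27. Of these, 17 lay above 0. The first began at position 10122775, past both transcription starts that RefSeq lists (10122568 and 10122739). The deepest with recovered reads was at 10122912 to 10123103, with log2 fold 2.01 and 134 IP over 10 input reads. The only enriched cluster there, at 10123132 to 10123239, had log2 fold 3.99 from 53 IP reads and 1 input read (interval 1.45 to 9.32). Replicate 2 had 4 clusters with log2 folds from −0.52 to 4.55. Its only enriched one, at 10127606 to 10127674, had 4.55 from 13 IP reads and 1 input read (interval 1.82 to 9.96). The replicate 1 cluster that overlaps it stood at 1.73 (11 over 1). The enriched clusters of the start region thus lay at different positions in the replicates, each on 1 input read.

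After the start region came the longest stretch without clusters in both replicates. In replicate 1 it ran from 10131234 to 10138569 (7336 bases) and in replicate 2 from 10131146 to 10146484 (15339 bases). Between 10 kb and the distal group, replicate 1 had 20 clusters with a median log2 fold of 0.79 and replicate 2 had 16 with a median of 1.15. None of these was enriched, with −log10 p at most 1.75 and 3.12. The highest folds were 2.91 in replicate 1 (25 IP over 1 input read) and 3.18 in replicate 2 (5 over 1).

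Downstream of the distal group, clusters went on to position 10209659 in replicate 1 and 10207307 in replicate 2, with 52 clusters in replicate 1 (median log2 fold 1.73) and 24 in replicate 2 (median 2.15). Enriched were 3 in replicate 1: the one directly past the last reproducible peak, and clusters at 10166524 to 10166629 (3.85, 48 over 1) and 10172204 to 10172372 (3.27, 64 over 2). In replicate 2 they were at 10182291 to 10182346 (4.31, 11 over 1) and 10199909 to 10199977 (3.18, 10 over 2). No enriched cluster of one replicate in this part overlapped an enriched cluster of the other. RefSeq places 3 other gene spans within that of RRM2: a small nucleolar RNA gene, MIR4261 and the long noncoding RNA gene LOC105373424. None of them overlaps the distal group. The small nucleolar RNA gene and MIR4261 overlap 0 clusters. LOC105373424, at 10198674 to 10201473, overlaps 3, among them the enriched one at 10199909.

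RRM1, on chromosome 11 from 4094685 to 4138932, plus strand, had 50 clusters in replicate 1. Of these, 0 were enriched, near the share of 1.39% over all clusters. The RRM1 log2 folds ran from −1.73 to 2.85 with a median of 0.07, the same as the median of all clusters in that list (0.07). In replicate 2, 3 of its 17 clusters passed (17.6%, beside 12.8% of all clusters), with a median log2 fold of 2.27 against 1.85 over the list. The enriched clusters were at 4096207 to 4096281 (log2 fold 4.55, 13 IP over 1 input read, interval 1.82 to 9.96), 4096736 to 4096798 (4.18, 10 over 1, interval 1.36 to 9.62) and 4120712 to 4120773 (3.31, 11 over 2, interval 1.12 to 6.53). The first 2 lay 1.6 and 2.1 kb past the gene's start and the third 26.1 kb past it. All 3 rested on 1 or 2 input reads, and RRM1 held no reproducible peak. The deepest RRM1 cluster of replicate 2 with recovered reads, at 4120386 to 4120462, had log2 fold 2.02 (27 over 12, interval 0.99 to 3.14).

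RRM2B, on chromosome 8 from 102204501 to 102238961, held clusters on the minus strand only. It had 18 clusters in replicate 1 and 5 in replicate 2, and 0 in either were enriched. The shares over all clusters were 1.39% and 12.8%, so 0 of so few clusters is near them. In replicate 1 the log2 folds ran from −1.15 to 1.73 with a median of 0.27. The deepest cluster with recovered reads lay 34.2 kb past the gene's start, near its end, with log2 fold 1.04 from 41 IP over 6 input reads (interval −0.21 to 2.57). In replicate 2, where the median over the list was 1.85, all 5 folds were above 0, from 1.27 to 2.85. They rested on 3 or 4 IP reads each, and every interval included 0. The highest RRM2B value there, 2.85, is 4 IP reads over 1 input read.

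Clusters of RRM1 and RRM2B rested on few reads. Over 1 input read, the fewest IP reads that gave a call were 37 (replicate 1) and 9 (replicate 2). Over 2 they were 54 and 10. In replicate 1 no RRM1 cluster with recovered reads had more than 24 IP reads. Other RRM1 clusters of replicate 1 lay at log2 folds of −0.08, −0.58 and −0.61, with reads in the ratios 22 to 7, 20 to 9 and 24 to 11. These ratios are in lowest terms and the reads themselves could not be fixed, so these clusters cannot be ranked by input. In RRM2B, 1 of 5 clusters with recovered reads in replicate 1 reached 37 IP reads, and it had 6 input reads. In replicate 2 the most IP reads in an RRM2B cluster were 4, and the upper interval bounds ran from 4.04 to 8.48, so a log2 fold of 3 lay within the counting error of all 5. RRM2 had 31 clusters of 37 or more IP reads in replicate 1 and 28 of 9 or more in replicate 2. Few IP reads at like input is itself the absence of enrichment, so these counts do not separate the abundance of the transcripts from the binding of ADAR, and that was not tested.

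**Figure D3:**
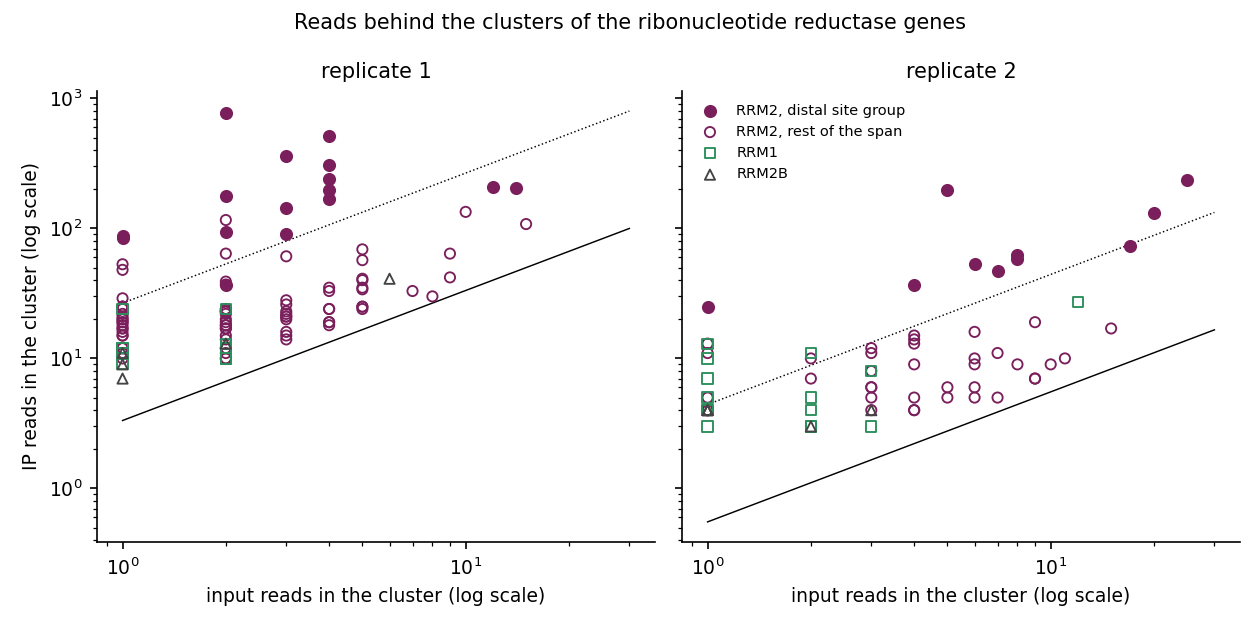
IP reads (y axis, log scale) against input reads (x axis, log scale) of each cluster with recovered reads in RRM2, RRM1 and RRM2B, for both replicates, without the replicate 2 cluster at the −log10 p limit. The solid line is equal share of the libraries (log2 fold 0) and the dotted line log2 fold 3; the RRM2 distal clusters (filled) reach 769 IP reads, while those of RRM1 stay at or below 27 and those of RRM2B at or below 41.

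Grouped by input reads, the RRM2 calls did not rest on 1 input read alone. In replicate 1, 4 of its 27 clusters with 1 input read were enriched, against 5.38% of all such clusters. With 2 to 4 input reads the count was 13 of 54, against 4.51% of all, and with 5 or more it was 0 of 17, against 1.96%. In replicate 2 the counts were 3 of 7 with 1 input read (17.6% of all), 2 of 17 with 2 to 4 (16.5% of all) and 7 of 24 with 5 or more (7.98% of all). These counts leave out the cluster at the −log10 p limit. They again use the contrast on which RRM2 was selected.

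The other genes of deoxynucleotide supply came from a list of 38 genes that includes the 3 reductase genes. Of these, 37 had a cluster in replicate 1 and 33 in replicate 2. Genes that could not be given a strand were not counted. Enriched clusters were found in 3 genes in replicate 1 (8.11% of those with a cluster) and 16 in replicate 2 (48.5%). Over all protein-coding genes with a cluster, the shares were 16.6% and 44.4%. RRM2, itself selected for its reproducible peaks, was the only listed gene with any, beside 4.03% of all protein-coding genes with a cluster. Nothing is read from this count. RRM2 was counted over its whole span, and all its reproducible peaks lay in the distal site group, not near the span's start. Without the reductase genes, 2 of 34 had an enriched cluster in replicate 1 and 14 of 30 in replicate 2.

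Besides RRM2, 2 listed genes had enriched clusters in both replicates. TXNRD1, the thioredoxin reductase that keeps thioredoxin able to reduce the reductase, had 1 of 119 clusters enriched in replicate 1 and 3 of 33 in replicate 2, with top log2 folds of 3.62 and 3.66. GART, an enzyme of purine synthesis with several activities, had 2 of 55 and 6 of 29, with tops of 3.85 and 4.94. By group, the electron donors of the reductase had an enriched cluster in 1 of 3 genes in replicate 1 and 2 of 2 in replicate 2 (TXNRD1, joined by TXN in replicate 2). Ribonucleotide synthesis had 1 of 8 and 3 of 8 (GART, joined by DHODH and PPAT), and the dNTP hydrolases 0 of 3 and 1 of 2 (SAMHD1). Nucleotide kinases had 0 of 8 and 4 of 7, and the thymidylate and folate steps had 0 of 5 and 2 of 5. Salvage kinases had 0 of 4 and 2 of 4 (DGUOK and TK1), and the steps on dUTP and dCMP had 0 of 3 and 0 of 2. The highest log2 fold in the list was 7.06, in the replicate 2 clusters of TK1, the cytosolic thymidine kinase, whose highest in replicate 1 was 2.91. The genes named here beyond TXNRD1 and GART were chosen after their values were seen.

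**Figure D4:**
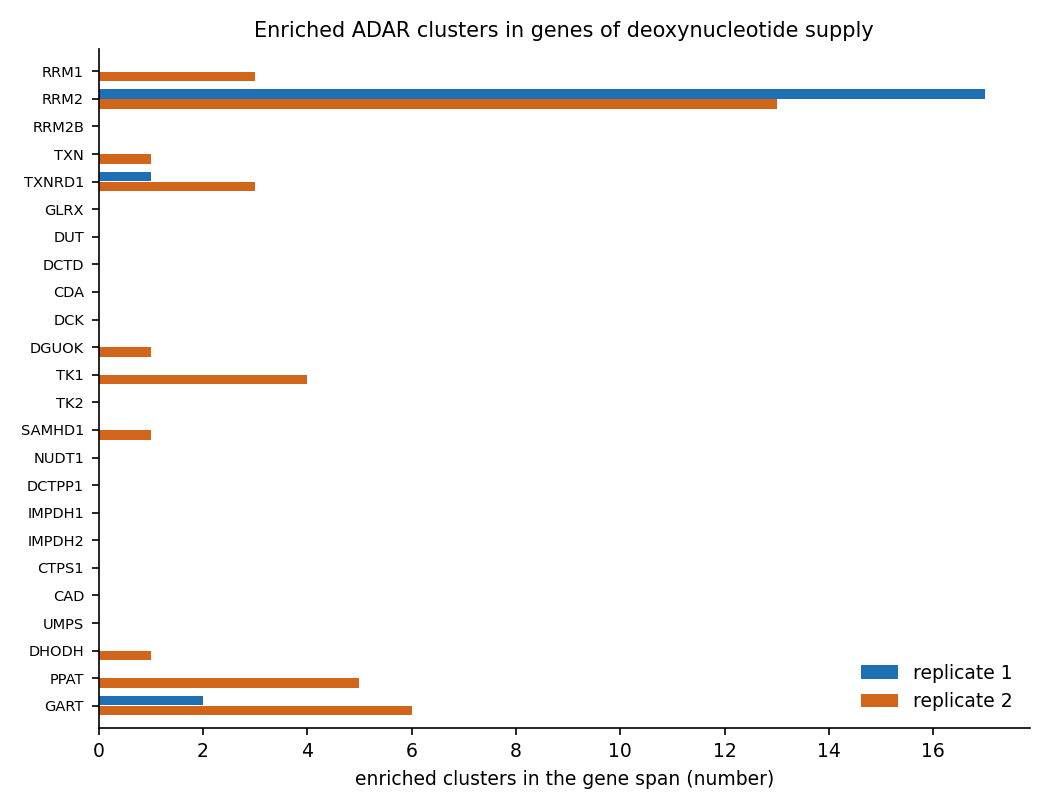
Number of enriched ADAR clusters (x axis) in the gene spans of the reductase, its electron donors, the dUTP and dCMP steps, salvage kinases, dNTP hydrolases and ribonucleotide synthesis (y axis), for replicates 1 and 2, with nucleotide kinases and the thymidylate and folate steps not drawn. RRM2 has 17 and 13 over its whole span, of which 13 and 10 lie in the distal site group. GART has 2 and 6, and TXNRD1 1 and 3, while the other genes shown have 0 in replicate 1.

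Among the 93 genes with 5 or more reproducible peaks, the pattern most like that of RRM2 was measured by distance over 3 values: enriched clusters in replicate 1 and in replicate 2, each as log2 of the count plus 1, and the median reproducible log2 fold. PPIL2 came closest (distance 0.41), with 16 and 12 enriched clusters and 10 reproducible peaks of median log2 fold 4.40. CR1L followed (0.78) with 10, 12 and 8 peaks, and then the long noncoding RNA gene LOC105369896 (0.82) with 13, 12 and 9 peaks. Reproducible peaks extended over 3476 bases in RRM2, 4667 in CR1L, 14258 in PPIL2 and 76499 in LOC105369896.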

How the data were processed

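ADAR eCLIP peak lists of K562 cells were analysed, from 2 IP and 2 input libraries. The submitters' processing notes name cutadapt 1.9 and STAR 2.4.0i. For the peak caller and the combining of replicates, a description was not given in the sources used here. Both the −log10 p-values and the log2 folds of IP over input per cluster were deposited by the authors, the p limited to 400. Coordinates are GRCh38, counted from 1. Gene spans, names and strands came from RefSeq tables of GRCh38.p14. Where no strand was listed (RRM2B), that of the clusters was taken.

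In each replicate the folds are log2 ratios of whole reads minus a constant, fixed by assuming that the most frequent fold stands for 3 IP over 1 input. The read pair was the only multiple (up to 2000 input reads) whose p matched the authors' within 0.001 plus 1e-04 of its value. The p was that of Fisher's test (as its binomial limit) where an observed or expected read number was under 5, and of a chi-square test with Yates' correction otherwise. Of clusters with a positive fold and a p between 1 and the limit, 98.2% in replicate 1 and 99.5% in replicate 2 matched. The procedure was run on simulated read pairs whose p came from the same formulas and constant. That run could check the search for multiples only, not the formulas or the assumed 3 over 1. An input of 1 may stand for 0 reads, which was not tested. Reads of clusters whose p is 1 were not used, and where such clusters are named only the ratio in lowest terms is given.

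The rule for named genes took the 3 members, listed genes with a reproducible peak or with enriched clusters in both replicates, spans over the distal group, and the 3 genes most like RRM2. Other listed genes, and gene spans within RRM2 outside the distal group, were named after their values were seen. Members, lists and rules were chosen with earlier results of these data known. Some listed genes are not reported here by name. The region sequences were not analysed here. Python 3.11.15, numpy 2.4.6, pandas 2.3.3, scipy 1.17.1 and matplotlib 3.10.9 were used.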

Additional observations from a re-analysis of the deposited data

How the results depend on the processing

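Of 59 alternative counts, 43 stayed within 1.5 times the reported count and 16 moved beyond it. Of the 43, 15 were counts of 0 that stayed at 0 (RRM2B, and RRM1 in replicate 1), which a stricter threshold cannot change. The 10 that required at least 2 input reads were chosen after seeing the data. At a log2 fold of at least 4, enriched clusters of RRM2 numbered 9 in replicate 1 and 7 in replicate 2, those of its distal group 8 and 5, its reproducible peaks 6, those of its start region 0 in replicate 1, and listed genes with an enriched cluster 1 in replicate 1. At a log2 fold of at least 2, the start region had 3 in replicate 1 and the list had 7 genes there. At a −log10 p of at least 5, RRM1 had 0 in replicate 2, the start region 0 in both replicates, and the list 1 gene in replicate 1. With at least 2 input reads, RRM1 had 1 in replicate 2 and the start region 0 in both, because clusters on 1 input read left the count. At a log2 fold of at least 2, RRM2B stayed at 0 in both replicates and RRM1 at 0 in replicate 1. A lower fold threshold could not add calls there, because −log10 p still had to be at least 3. The highest −log10 p was 0.882 and 1.24 in RRM2B in replicates 1 and 2, and 1.76 in RRM1 in replicate 1. Of the reproducible RRM2 peaks, 12 were overlapped by an enriched cluster of replicate 2 and 11 by one of replicate 1. The peaks were not called again without a replicate, and they take their borders from these clusters. These 2 counts therefore cannot show how far the peaks depend on either replicate. No paired analysis was possible because the results are counts of the authors' folds, each already a ratio of IP to the same-numbered input. Folds on 1 or 2 input reads are limited by depth: 47.0% of enriched clusters with recovered reads in replicate 1 and 31.0% in replicate 2 had 1 input read.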
